A study of Mus musculus with 4 samples.

Results

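The environmental and nutrient sensors considered here are 10 genes of the aryl hydrocarbon receptor, the vitamin D receptor and the retinoid receptors with their partners and targets, taken by name from the 19339 genes listed in every library, and all 10 were found by Entrez identifier. The cells were small intestinal TCRβ+CD8αα+ intraepithelial lymphocytes (IELs), unconventional T cells of the gut epithelium, sorted from C57BL/6 mice. Controls carried the loxP-flanked alleles without Cre (Kdm6b fl/fl), and Kdm6b-deficient mice carried the same alleles with CD4Cre (Kdm6b fl/fl-CD4Cre). In the latter Cre is driven by the Cd4 promoter, which is meant to delete the histone H3K27 demethylase Kdm6b in T cells, and Kdm6b was not measured by cell type here. The labels give no age, sex or treatment. Each group had 2 libraries, numbered replicates 1 and 3, and each library was a pool of RNA from 3 mice of 1 genotype.

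Ahr is a ligand-activated transcription factor that senses plant indoles, tryptophan metabolites and dioxins, and it is known for maintaining IELs. On binding a ligand it enters the nucleus, pairs with Arnt and activates genes such as Cyp1a1, Ahrr and Tiparp, whose products in turn remove its ligands or dampen it. The vitamin D receptor Vdr and the retinoic acid receptors Rara and Rarg are nuclear receptors that bind DNA as pairs with Rxra or Rxrb. Vdr is known for driving calcium uptake in enterocytes, and retinoic acid is known for inducing gut homing receptors on T cells.

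The expression values are FPKM, fragments scaled to the length of the transcript and to the number of mapped fragments, so that levels can be compared between genes. From the smallest steps between low values the libraries were estimated to hold between 12200000 and 14700000 mapped fragments. Kdm6b had 16.5 and 16.0 FPKM in control replicates 1 and 3 and 18.2 and 11.1 FPKM in those labelled Kdm6b-deficient, a log2 difference of -0.18 with a standard error of 0.29 and an adjusted p of 0.886 in limma. It was thus not lower in the library labelled Kdm6b-deficient replicate 1 than in the controls, and each library is therefore referred to by its label. All 7 T cell markers of the sorted cells (Cd3d, Cd3e, Cd3g, Cd247, Cd8a, Ptprc and Itgae) were present, and their summed FPKM was 3556 to 4393 in the controls and 2583 to 3450 in those labelled Kdm6b-deficient, with 4 of the 7 lower without overlap, against 18.6% of all genes tested. All 25 epithelial markers were above 0 in every library. Their sum was 1471 in control replicate 1, 4634 in control replicate 3, 4313 in Kdm6b-deficient replicate 1 and 11279 in Kdm6b-deficient replicate 3, so that the groups overlapped. All 6 myeloid markers were above 0, with sums of 312 to 447 in the controls and 505 to 715 in those labelled Kdm6b-deficient, and 4 of the 6 were higher without overlap, against 18.4% of all genes tested. The sum of 4 B cell markers was 33 to 39 against 31 to 36. Cd4, against which the cells were sorted, had 30.6 and 10.1 FPKM in control replicates 1 and 3 and 30.5 and 3.17 FPKM in those labelled Kdm6b-deficient. Cd8b1, the other excluded marker, was at most 1.64 FPKM and was listed at 0 in control replicate 1.

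The promoter sequences of the Ahr targets and of Vdr, the sensor with the largest difference between the groups among those tested, show where the core of the Ahr response element falls close to their starts. Each is the 250 bases before an annotated transcript start in RefSeq on GRCm38.p6, which for Cyp1a1 lies inside the gene's annotated span and for the others at its edge, written 5′ to 3′ on the strand of the gene, with every GCGTG on either strand (CACGC on the printed strand) in capitals. The regions are chr13:74292332-74292581 on the minus strand for Ahrr, chr3:65528197-65528446 on the plus strand for Tiparp, chr9:57697363-57697612 on the plus strand for Cyp1a1 and chr15:97908297-97908546 on the minus strand for Vdr.
Ahrr: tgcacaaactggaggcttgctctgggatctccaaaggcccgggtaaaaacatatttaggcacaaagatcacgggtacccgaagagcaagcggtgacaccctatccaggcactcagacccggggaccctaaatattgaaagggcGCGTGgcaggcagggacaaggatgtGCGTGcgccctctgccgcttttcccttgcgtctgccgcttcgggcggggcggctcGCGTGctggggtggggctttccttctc
Tiparp: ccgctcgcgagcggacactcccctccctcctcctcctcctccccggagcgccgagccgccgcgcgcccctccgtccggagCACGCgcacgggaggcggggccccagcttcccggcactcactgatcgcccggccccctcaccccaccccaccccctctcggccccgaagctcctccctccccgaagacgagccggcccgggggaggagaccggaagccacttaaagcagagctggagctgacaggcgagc
Cyp1a1: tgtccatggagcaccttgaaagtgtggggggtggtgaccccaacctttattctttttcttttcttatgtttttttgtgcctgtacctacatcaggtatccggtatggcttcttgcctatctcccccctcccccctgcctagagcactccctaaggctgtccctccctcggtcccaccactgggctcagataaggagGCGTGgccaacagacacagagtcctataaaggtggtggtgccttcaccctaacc
Vdr: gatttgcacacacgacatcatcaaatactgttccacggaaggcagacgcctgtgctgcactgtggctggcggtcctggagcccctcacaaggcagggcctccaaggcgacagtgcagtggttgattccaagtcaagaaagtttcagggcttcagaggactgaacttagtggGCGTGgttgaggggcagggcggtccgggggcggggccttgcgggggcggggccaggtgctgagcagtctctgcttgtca
With the start counted as 1 and the base before it as -1, the core began at -107, -82 and -27 in Ahrr and at -170, on the opposite strand, in Tiparp. Cyp1a1 and Vdr held it at -54 and -79. Of 9 members with promoter windows, 8 held GCGTG in at least 1 window of 300 bases, and 10 of their 15 windows did, against 32.4% of all 32851 windows. That share is per window, and some members had more than 1 window, in part overlapping. The share of all genes with at least 1 such window was not computed. The nuclear receptor half-site AGGTCA was in 3 of the 15 windows (Rara, Rarg and Rxra), against 16.3% of all windows, and GGGTCA in 4 (Arnt, Cyp1a1, Rara and Rxra), against 13.7%. These matches are descriptions of the sequence, and no binding was measured here.

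Ahr (Entrez 11622, chr12:35497979-35534989 on GRCm38.p6, as for all genes here) had 16.7 and 9.59 FPKM in control replicates 1 and 3, and 16.1 and 9.96 FPKM in those labelled Kdm6b-deficient replicates 1 and 3. It followed the replicate number and not the genotype label. The group means were 13.1 ± 5.01 and 13.0 ± 4.33 FPKM (SD, n = 2), and the log2 difference was 0.00 with a 95% interval from -0.92 to 0.92. Within replicate 1 the difference was -0.05 and within replicate 3 it was 0.05 on the log2(FPKM + 1) scale. With the epithelial markers as a covariate in limma the log2 difference of Ahr was 0.63 (adjusted p = 0.59). Both replicate 1 libraries lay above both replicate 3 libraries in 22.8% of all genes tested, and Cd4 did so too. The part of Cd4+ cells in the level of Ahr was not tested. In these bulk libraries, fewer cells of a type and less RNA per cell cannot be told apart.

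Arnt, the DNA-binding partner of Ahr (Entrez 11863, chr3:95434367-95497240), had 23.2 and 21.5 FPKM in control replicates 1 and 3 and 16.7 and 18.9 FPKM in those labelled Kdm6b-deficient. Both of the latter lay below both controls, as in 18.6% of all genes tested. The log2 difference was -0.31 with a standard error of 0.21 (adjusted p = 0.763 in limma), so it did not pass the test, and it was 0.09 with libraries scaled to the Cd3 genes and Ptprc, where the median of all genes was 0.38. Tiparp and Rxrb were likewise above 0 but below that median on this scale, at 0.32 and 0.20. Arnt was 1.04 to 2.24 times as high as Ahr in FPKM, the ratio being 1.39 and 1.04 in the replicate 1 libraries and 2.24 and 1.89 in the replicate 3 libraries. Per 1000 FPKM of the 7 T cell markers Arnt had 5.27 and 6.04 FPKM in the controls and 4.84 and 7.31 FPKM in those labelled Kdm6b-deficient. On that scale the groups overlapped. Relative to 1000 FPKM of epithelial markers Arnt had 15.8 and 4.64 FPKM against 3.87 and 1.67 FPKM, without overlap.

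Ahrr, the repressor that competes with Ahr for Arnt (Entrez 11624, chr13:74211118-74292331), had 7.49 and 5.40 FPKM in control replicates 1 and 3 and 3.87 and 5.13 FPKM in those labelled Kdm6b-deficient. The groups did not overlap, with those labelled Kdm6b-deficient lower, as in 18.6% of all genes tested. Kdm6b-deficient replicate 3 was, however, close to control replicate 3. The log2 difference was -0.43 with a standard error of 0.32 (adjusted p = 0.774 in limma), -0.80 within replicate 1 and -0.06 within replicate 3. The ratio of Ahrr to Ahr in FPKM was 0.449 and 0.563 in the controls and 0.241 and 0.515 in those labelled Kdm6b-deficient. The lowest ratio was thus that of Kdm6b-deficient replicate 1, in which Ahr was as high as in control replicate 1. Ahrr per 1000 FPKM of T cell markers was 1.71 and 1.52 in the controls and 1.12 and 1.99 in those labelled Kdm6b-deficient, which overlap. Relative to 1000 FPKM of epithelial markers it was 5.09 and 1.17 against 0.897 and 0.455, which do not overlap.

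Tiparp, an ADP-ribosyltransferase that is induced by Ahr and restrains it (Entrez 99929, chr3:65528447-65555518), was the highest of the 10 genes in every library. It had 71.6 and 75.8 FPKM in control replicates 1 and 3 and 73.5 and 64.1 FPKM in those labelled Kdm6b-deficient. Its level was above that of 85.6% to 87.8% of the genes tested in each library, and its highest value was 1.18 times its lowest, the narrowest range among the members. The log2 difference was -0.10 with a 95% interval from -0.54 to 0.33. The ratio of Tiparp to Ahr was 4.30 and 7.91 in the controls against 4.57 and 6.43 in those labelled Kdm6b-deficient, so it did not share the difference of Ahr between replicates 1 and 3.

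Cyp1a1, the monooxygenase that clears Ahr ligands (Entrez 13076, chr9:57687928-57703824), did not share the level of Tiparp. It was listed at 0 in control replicate 1 and had 0.26 FPKM in control replicate 3, 0.36 FPKM in Kdm6b-deficient replicate 1 and 3.34 FPKM in Kdm6b-deficient replicate 3. Only the last passed 1 FPKM, so Cyp1a1 did not pass the filter and was left out of the main test. Its difference of group means was 1.11 on the log2(FPKM + 1) scale, with an adjusted p of 0.822 in limma when no filter was used. At the estimated depth these values correspond to about 9.4, 13.3 and 102 fragments. Kdm6b-deficient replicate 3 was also the library with the highest epithelial markers. Per 1000 FPKM of those markers Cyp1a1 had 0.0561 and 0.0835 FPKM in control replicate 3 and Kdm6b-deficient replicate 1 and 0.296 FPKM in Kdm6b-deficient replicate 3. The part of epithelial RNA in these values was not tested.

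**Figure D1:**
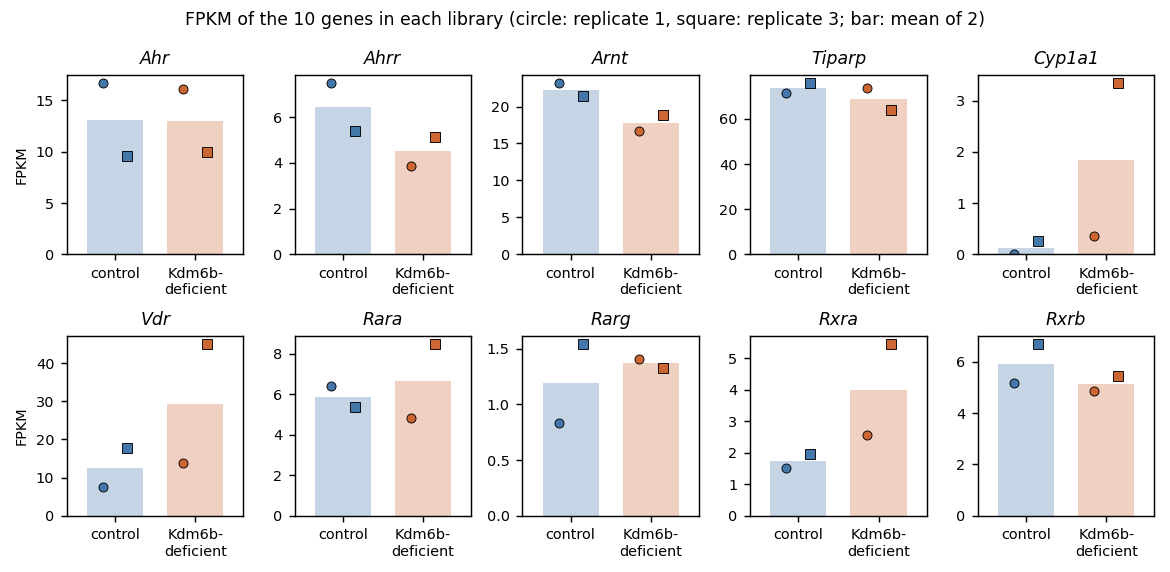
FPKM (vertical axes, each from 0) of the 10 genes in the 4 libraries; circles are replicate 1, squares replicate 3 and bars the mean of the 2 libraries of a group. Ahr separates by replicate number (16.7 and 16.1 against 9.59 and 9.96 FPKM), while Vdr, Rxra and Cyp1a1 are highest in Kdm6b-deficient replicate 3.

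Vdr (Entrez 22337, chr15:97854427-97908296) varied most among the tested members. It had 7.50 and 17.7 FPKM in control replicates 1 and 3 and 13.8 and 44.9 FPKM in those labelled Kdm6b-deficient replicates 1 and 3. The groups overlapped, since control replicate 3 was above Kdm6b-deficient replicate 1. The means were 12.6 ± 7.18 and 29.3 ± 22.0 FPKM (SD, n = 2), a log2 difference of 1.05 with a 95% interval from -0.53 to 2.63 (adjusted p = 0.757 in limma). The difference was 0.80 within replicate 1 and 1.30 within replicate 3, and it was -0.33 between Kdm6b-deficient replicate 1 and control replicate 3. Those 2 libraries had epithelial marker sums of 4313 and 4634 FPKM. In a fit blocked on replicate number Vdr was the 1 of the 9 tested members called (adjusted p = 0.012 in limma), against 8.49% of all genes, but no label says that the numbers pair the pools.

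The order of the libraries for Vdr was that of the summed epithelial markers, and 20 of the 25 epithelial markers had this order one by one, as did 12.7% of all genes tested. Relative to control replicate 1, Vdr was 2.35, 1.84 and 5.98 times as high in control replicate 3 and Kdm6b-deficient replicates 1 and 3, and the epithelial sum was 3.15, 2.93 and 7.67 times as high. Per 1000 FPKM of epithelial markers Vdr was 5.10 and 3.81 FPKM in the controls and 3.20 and 3.98 FPKM in those labelled Kdm6b-deficient, a range of 1.59 times. Per 1000 FPKM of T cell markers it was 1.71 and 4.97 against 4.0 and 17.4 FPKM, a range of 10.2 times. With the epithelial markers as a covariate in limma the log2 difference of Vdr was -0.20 (adjusted p = 0.971). The part of epithelial RNA in the values of Vdr was not tested.

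The partners of these receptors differed from each other. Rxra (Entrez 20181, chr2:27676445-27763319) had 1.53 and 1.97 FPKM in control replicates 1 and 3 and 2.57 and 5.44 FPKM in those labelled Kdm6b-deficient. Both of the latter were above both controls, a pattern that 18.4% of all genes tested had. Rxra was the only tested member with it. The log2 difference was 0.81 with a standard error of 0.40 (adjusted p = 0.755 in limma), 0.50 within replicate 1 and 1.12 within replicate 3. Rxrb (Entrez 20182, chr17:34031812-34038403) had 5.16 and 6.68 FPKM in the controls and 4.86 and 5.44 FPKM in those labelled Kdm6b-deficient, with overlapping groups and a log2 difference of -0.16 (95% interval -0.89 to 0.57). In FPKM, Rxra was 0.297 and 0.295 times as high as Rxrb in the controls, 0.529 times in Kdm6b-deficient replicate 1 and level with it in Kdm6b-deficient replicate 3. The sum of both was 6.69 and 8.65 FPKM in the controls and 7.43 and 10.9 FPKM in those labelled Kdm6b-deficient, which overlap. Rxra per 1000 FPKM of epithelial markers was 1.04 and 0.425 FPKM against 0.596 and 0.482 FPKM, which overlap. Relative to 1000 FPKM of T cell markers it was 0.348 and 0.554 FPKM against 0.745 and 2.11 FPKM, which do not overlap. With the epithelial markers as a covariate its log2 difference was 0.33 (adjusted p = 0.962 in limma). The part of epithelial RNA in the values of Rxra was not tested.

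Rara, a receptor for all-trans retinoic acid (Entrez 19401, chr11:98927800-98974942), had 6.39 and 5.39 FPKM in control replicates 1 and 3 and 4.81 and 8.47 FPKM in those labelled Kdm6b-deficient. The latter held both the lowest and the highest value. Its log2 difference was 0.11 (95% interval -0.76 to 0.98), -0.35 within replicate 1 and 0.57 within replicate 3. Rarg, a further receptor for the same ligand (Entrez 19411, chr15:102234938-102257522), was low, with 0.83 and 1.54 FPKM in the controls and 1.41 and 1.33 FPKM in those labelled Kdm6b-deficient. Its log2 difference was 0.14 (95% interval -0.73 to 1.0), and Rara was 3.41 to 7.70 times as high in FPKM. Their relative Rarb was listed at 0 in 3 libraries and had 0.04 FPKM in Kdm6b-deficient replicate 3.

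Across the set, 9 of the 10 genes passed the filter of at least 1 FPKM in at least 2 libraries. None of the 9 passed an adjusted p of 0.05 in limma (0 genes, and 0 at an unadjusted p under 0.05), and among all 12009 genes tested the counts were 0 (0%) and 642 (5.35%). The smallest adjusted p of any gene was 0.193, and an exact permutation test of 2 libraries against 2 cannot give a two-sided p below 0.333 for a single gene. Among the 9 tested members, 1 (Vdr) had a log2 difference above 1, which 6.2% of all genes tested had, and 0 members had one below -1, against 0.441%. Without control replicate 1 the difference of Vdr was 0.48, and without Kdm6b-deficient replicate 3 it was 0.23. In 1 tested member (Rxra) the groups did not overlap with the libraries labelled Kdm6b-deficient higher, against 18.4% of all genes, and in 2 (Ahrr and Arnt) with them lower, against 18.6%, so 3 of 9 did not overlap in either direction, against 37%. The median log2 difference was 0.000276 over the 9 genes and 0.000965 over all genes tested. By FPKM, Tiparp and Arnt led in the controls and in Kdm6b-deficient replicate 1, whereas Vdr ranked second in Kdm6b-deficient replicate 3. Ahr and Vdr exchanged the ranks 3 and 4 between the control libraries, and Rara, Rxrb and Ahrr, between 3.87 and 8.47 FPKM in all libraries, changed places from library to library.

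**Figure D2:**
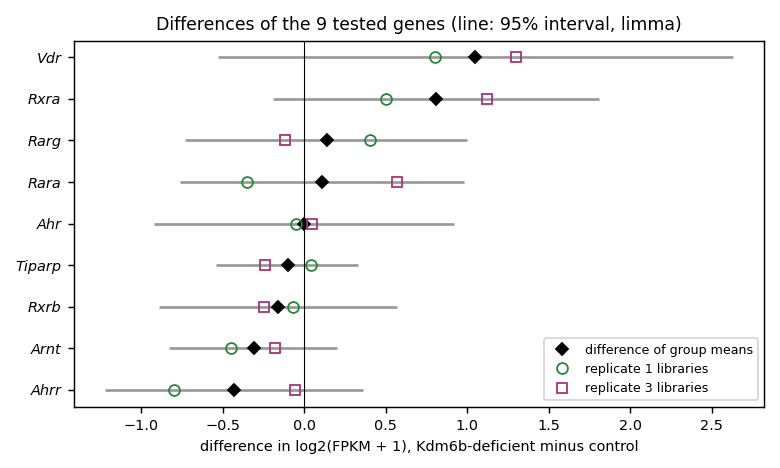
Difference in log2(FPKM + 1) between libraries labelled Kdm6b-deficient and control (horizontal axis) for the 9 tested genes; diamonds are differences of group means with 95% intervals from limma, open circles and squares the differences within replicates 1 and 3. Every interval includes 0, and Vdr has the widest, from -0.53 to 2.63.

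The other genes of the pathways were taken from lists by name. Of 18 further Ahr pathway genes in the files, 12 were tested. In limma 0 had an adjusted p under 0.05 and 0 an unadjusted one, the latter against 5.35% of all genes tested. The log2 difference was above 1 in 1 gene, against 6.2%, and below -1 in 0, against 0.441%. In 2 the groups did not overlap with the libraries labelled Kdm6b-deficient higher, against 18.4%, and in 0 with them lower, against 18.6%. Their median was 0.26. The chaperones that hold Ahr in the cytoplasm were abundant, Hsp90ab1 at 717 and 822 FPKM in the controls and 706 and 757 FPKM in those labelled Kdm6b-deficient, and Hsp90aa1 at 385 and 485 against 446 and 472 FPKM. Their log2 differences were -0.07 and 0.09. Nqo1, a quinone reductase induced by Ahr and Nfe2l2, had 4.14 and 12.2 FPKM in the controls and 10.3 and 29.0 FPKM in those labelled Kdm6b-deficient, a log2 difference of 1.16. Cyp2s1, a cytochrome P450, had 3.59 and 8.21 FPKM in the controls and 6.65 and 16.9 FPKM in the others, with a difference of 0.85. Both had the library order of Vdr and overlapped between groups. Arntl, the clock gene related to Arnt, had 10.3 and 11.4 FPKM against 14.1 and 20.02 FPKM, without overlap, and a log2 difference of 0.59.

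Of 13 further vitamin D genes, 9 were tested, and their median was 0.09. In limma 0 had an adjusted and 0 an unadjusted p under 0.05, the latter against 5.35% of all genes tested, and 1 had a log2 difference above 1 and 0 below -1, against 6.2% and 0.441%. The groups did not overlap in 3, all higher in the libraries labelled Kdm6b-deficient, against 18.4%, and 0 were lower, against 18.6%. S100g, the calcium-binding protein of enterocytes and a known Vdr target, had 4.28 and 17.2 FPKM in the controls and 9.91 and 43.6 FPKM in those labelled Kdm6b-deficient, the library order of Vdr, with a log2 difference of 1.17. Cyp24a1, the enzyme that degrades active vitamin D and a known Vdr target, stayed at 0.40 FPKM or less in all libraries, and Cyp27b1, which makes active vitamin D, at 0.08 FPKM or less. Cyp27a1, a sterol hydroxylase, had 2.75 and 2.98 FPKM against 4.66 and 4.42 FPKM, without overlap and with a log2 difference of 0.52. Among the most abundant genes of this list, Pdia3, Snw1 and the Mediator subunit Med1 had differences of 0.09, -0.01 and 0.14, and the coactivator Ncoa2 had -0.30.

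Of 21 further retinoid genes, 10 were tested, 0 had an adjusted p under 0.05 in limma and 1 an unadjusted one, 2 had a log2 difference above 1 and 0 below -1, against 5.35% of all genes tested for the unadjusted p and 6.2% above and 0.441% below. Their median was 0.48, and in 5 the libraries labelled Kdm6b-deficient both lay above the controls and in 1 both below, against 18.4% and 18.6% of all genes. Dhrs3, which reduces retinaldehyde to retinol, had 12.2 and 31.0 FPKM in the controls and 39.1 and 58.8 FPKM in those labelled Kdm6b-deficient, without overlap. Its log2 difference was 1.25 with a standard error of 0.46 (adjusted p = 0.755 in limma). Lrat, which esterifies retinol for storage, had 0.44 and 1.15 FPKM against 1.85 and 3.14 FPKM, also without overlap, and a log2 difference of 0.97. Rbp2, the retinol-binding protein of enterocytes, had 43.3 and 114 FPKM against 86.3 and 273 FPKM, the library order of Vdr, and a log2 difference of 1.12. Adh1, an alcohol dehydrogenase that oxidizes retinol, had 217 and 167 FPKM against 225 and 289 FPKM, and the related Adh5 had 80.5 and 91.7 FPKM against 79.7 and 94.9 FPKM. The retinoic acid hydroxylases Cyp26a1, Cyp26b1 and Cyp26c1 stayed at 0.34 FPKM or less. Over the epithelial markers the median log2 difference was 1.36, and 21 of 25 were above 1. The part of epithelial RNA in the differences of Nqo1, Cyp2s1, S100g, Rbp2, Dhrs3 and Lrat was not tested.

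**Figure D3:**
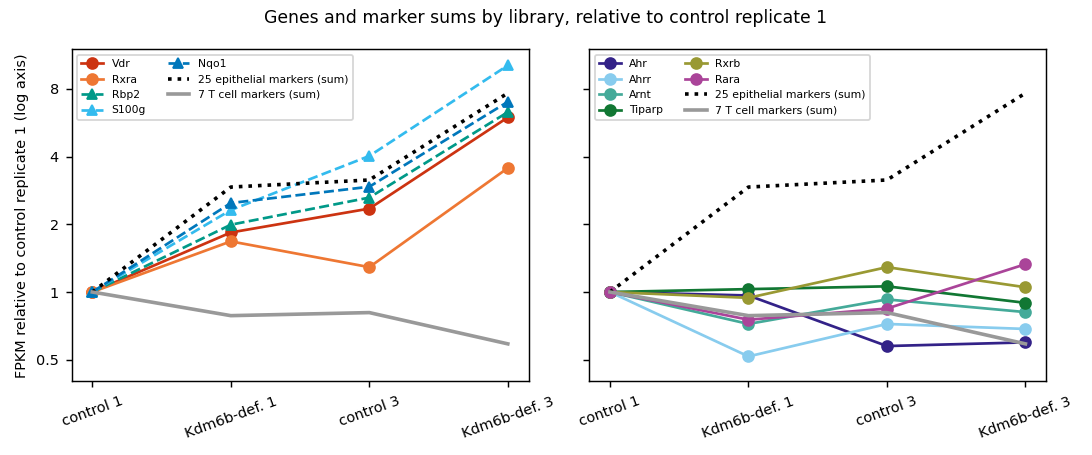
FPKM relative to control replicate 1 (vertical log axis) in the 4 libraries, placed from left to right by their summed epithelial markers; lines only join the values of 1 gene or marker sum. On the left Vdr, Rbp2, S100g and Nqo1 are ordered as the epithelial sum (dotted, 7.67 at its highest), with Vdr at 5.98 and Rxra at 3.56 in Kdm6b-deficient replicate 3; on the right Ahr, Ahrr, Arnt, Tiparp, Rxrb and Rara lie between 0.517 and 1.33 in the other libraries.

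**Figure D4:**
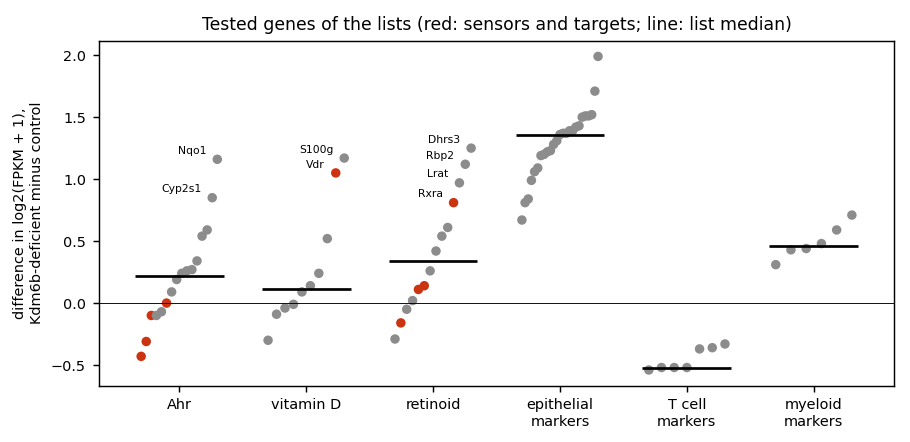
Difference in log2(FPKM + 1), Kdm6b-deficient minus control, of each tested gene of 3 pathway lists and 3 marker lists; red points are sensors and targets described above and lines are medians over all tested genes of a list, these included. The epithelial markers have a median of 1.36 and the T cell markers one of -0.52, against 0.22, 0.11 and 0.34 for the Ahr, vitamin D and retinoid lists.

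The genes whose profile over the 4 libraries was most like that of Ahr were Plek, Gm46340, Ppm1a, Fbxo11 and Ccdc92, by the root mean square difference of centred log2(FPKM + 1) values, which was 0.011 for Plek and 0.0417 for Ccdc92. The profile of Ahr itself had a root mean square of 0.35. Plek, which encodes the platelet and leukocyte protein pleckstrin, had 79.0 and 47.4 FPKM in control replicates 1 and 3 and 77.6 and 49.6 FPKM in those labelled Kdm6b-deficient.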

How the data were processed

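RNA-seq was analysed from 4 libraries, replicates 1 and 3 of control and Kdm6b-deficient TCRβ+CD8αα+ IELs. The authors aligned reads to mm10 by HISAT and Bowtie2 (2.2.5 in the submitters' processing notes) and quantified them with RSEM (1.2.8), and the deposited values are FPKM per gene with 2 decimals, scaled to transcript length and mapped fragments. The version of HISAT is not given in the sources used here. Depth was estimated from the spacing of low FPKM values of genes with 1 transcript, after subtracting 180 bases from its length. Symbols and coordinates came from RefSeq on GRCm38.p6, and 18467 of 19339 identifiers matched.

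Values were used as log2(FPKM + 1) and genes had to reach 1 FPKM in 2 or more libraries. Groups were compared with limma 3.58.1 (lmFit, eBayes with trend; 3.52 prior degrees of freedom) in R 4.3.3, without a block, and p was adjusted by Benjamini-Hochberg over all 12009 genes. The model was tested on simulated data. Tables were handled with pandas 2.3.3 in Python 3.11.15. The p-values measure the spread between these pools, which may be partly technical.

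The 10 genes and all lists were chosen with earlier results of these data known. Named were all 10, of each pathway list the 3 further tested genes with the highest mean FPKM and the 3 with the largest absolute log2 difference, and the 5 genes most like Ahr; Rarb, Cyp24a1, Cyp27b1 and the Cyp26 genes were named after their values were seen. Listed genes absent from the libraries were left out. Some listed genes are not reported here. Alternatives were the pseudocount, filter, scaling, trend, replicate block, an epithelial covariate and leaving out each library. Promoters came from RefSeq on GRCm38.p6; protein sequences were not used here.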

Additional observations from a re-analysis of the deposited data

How the results depend on the processing

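Ahrr and Rxra had the same sign in 15 of 15 and 14 of 14 alternatives, but most of these could not reverse it. Their groups did not overlap, so neither leaving out a library nor another pseudocount could change the sign. The filter, trend and block settings do not change the difference itself. Ahrr was -0.06 with scaling to Cd3 genes and Ptprc, -0.23 without control replicate 1 and -0.27 without Kdm6b-deficient replicate 1. No member but Vdr, under the block, passed the threshold in any of them. The numbers 1 and 3 are shared by both groups, but neither labels nor methods say that they pair pools, and with 2 pairs the correlation of same-numbered deviations across genes (0.56) does not settle it. Blocking on that number, 1019 of all genes (8.49%) and 1 member, Vdr (adjusted p = 0.012 in limma), had an adjusted p under 0.05. The epithelial covariate gave 178 such genes and 0 members past 1 on the log2 scale (488 of all genes), and turned Vdr to -0.20, Rara to -0.09 and Rarg to -0.07. A pseudocount of 0.1 or 0.01 gave 2 members past 1 (Vdr and Rxra) and 1381 or 1451 of all genes, where a pseudocount of 1 gave 797, and no filter gave 2 (Vdr and Cyp1a1). Scaling to Cd3 genes and Ptprc moved the median of all genes to 0.38, gave 2 members and 1488 genes past 1, and turned Arnt to 0.09, Tiparp to 0.32 and Rxrb to 0.20, all below that median. Quantile normalization turned Ahr to -0.05, Rara to -0.000106 and Rarg to -0.09, median-of-ratios scaling turned Ahr to -0.01 and a common total to -0.06. Leaving out each library in turn gave 0 to 2 members and 364 to 1577 genes past 1. Vdr then ranged from 0.23 (without Kdm6b-deficient replicate 3) to 1.87 (without Kdm6b-deficient replicate 1), and was 0.48 without control replicate 1 and 1.62 without control replicate 3. Rxra ranged from 0.38 to 1.23, Ahr from -0.37 to 0.37, with -0.32 without Kdm6b-deficient replicate 1, Rara from -0.24 to 0.46, Rarg from -0.10 to 0.37, Arnt from -0.40 to -0.23, Tiparp from -0.20 to -0.00398 and Rxrb from -0.32 to -0.00395. The causes were not tested. For Cyp1a1, about 0 to 13.3 fragments in 3 libraries limit the comparison.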
